A study of Homo sapiens with 8 samples.

Results

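The miRNAs hsa-miR-320a, hsa-miR-320b, hsa-miR-320c, hsa-miR-320d and hsa-miR-484 were followed in small RNA libraries of HCT116, a human colorectal cancer cell line. These 5 names, 4 from the miR-320 family and miR-484, were taken by exact match from the 2575 miRNA names in each count table. In 4 libraries the cells had been exposed for 6 hours, at a multiplicity of infection of 500, to ETBF. This is enterotoxigenic Bacteroides fragilis, a bacterium of the colon whose toxin is a protease. The 4 control libraries came from HCT116 cells given the bacterial medium without ETBF and titled untreated. All 8 libraries came from passages 16 to 19 of the same line, and the labels do not say whether the replicates were separate cultures, so p-values measure the spread between these libraries, which may be technical in part.

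Most miRNAs are cut from a long transcript by Drosha and then from a hairpin by Dicer. The mouse miR-320 hairpin is instead made directly by transcription, carries a cap at its 5′ end, leaves the nucleus through exportin 1 and needs Dicer alone. Mouse embryonic stem cells without the Drosha partner Dgcr8 also keep miR-484. The human miR-320b, miR-320c and miR-320d hairpins lie at other loci than miR-320a, and the capped route is not claimed for them here. In colorectal cancer cells miR-320a is known as a repressor of beta-catenin, the protein that the ETBF toxin is known to release by cleavage of E-cadherin. MiR-484 is known in mouse heart muscle cells as a repressor of the mitochondrial fission gene Fis1. No library lacked Drosha, so the data do not test how the members are made.

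The mature sequences are shown because miR-320b, miR-320c and miR-320d differ by so few bases that this limits what a read can be assigned to. They are RefSeq sequences (GRCh38.p14), written 5′ to 3′ with the seed, bases 2 to 8, in capitals.
miR-320b: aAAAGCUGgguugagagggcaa
miR-320c: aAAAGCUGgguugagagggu
miR-320d: aAAAGCUGgguugagagga
miR-320e: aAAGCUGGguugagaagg
miR-4429: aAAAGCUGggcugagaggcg
miR-484: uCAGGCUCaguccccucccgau
miR-3155a: cCAGGCUCugcagugggaacu

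MiR-320b, miR-320c, miR-320d and miR-4429 share the seed AAAGCUG. The RefSeq set used here held no miR-320a sequence, so none is shown and its seed was not compared. Counted from 1 at the 5′ end of miR-320b, miR-320c has C20U and ends at 20 bases, and miR-320d has G19A and ends at 19 bases. MiR-320e begins 1 base later, so its own bases 2 to 8 read AAGCUGG, and against miR-320b it has G17A. MiR-484 has another seed, CAGGCUC, which it shares with miR-3155a and miR-3155b. Bases G and C made up 63.6% of miR-484, 50% of miR-320b and miR-320c, and 47.4% of miR-320d.

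The hairpins of miR-484 and of both miR-320b copies show where the mature RNA, in capitals, sits.
MIR484: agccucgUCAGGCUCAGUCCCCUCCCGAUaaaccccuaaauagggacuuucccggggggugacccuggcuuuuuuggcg
MIR320B1: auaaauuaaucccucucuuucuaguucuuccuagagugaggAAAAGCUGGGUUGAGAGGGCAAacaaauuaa
MIR320B2: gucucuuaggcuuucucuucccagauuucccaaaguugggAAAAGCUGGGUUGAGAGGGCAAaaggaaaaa

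The MIR484 hairpin lies at chr16:15643294-15643372 (+), and its mature RNA covers bases 8 to 29, on the 5′ side. In GENCODE release 29, on the same GRCh38 build, this hairpin overlaps an exon of the same-strand gene NDE1 and begins 27 bases after an annotated NDE1 transcript start. Annotated starts of MARF1, on the opposite strand, lie 128 to 806 bases from the MIR484 hairpin. MIR320A overlaps no other annotated gene and lies 67 to 395 bases from the annotated starts of POLR3D, an RNA polymerase III subunit gene on the opposite strand. The mature miR-320b lies on the 3′ side of both of its hairpins, MIR320B1 at chr1:116671746-116671817 (+) and MIR320B2 at chr1:224257040-224257110 (-). MIR320B1 overlaps no other annotated gene, and MIR320B2 lies in an intron of NVL on the same strand. MiR-320c also has 2 hairpins, MIR320C1 at chr18:21683518-21683589 (+) and MIR320C2 at chr18:24321675-24321746 (+), within introns of ABHD3 and OSBPL1A and on the strand opposite to both genes. The hairpins of miR-320d, MIR320D1 at chr13:40727816-40727887 (-) and MIR320D2 at chrX:140926160-140926231 (-), overlap no other annotated gene. The count tables hold no coordinates, and the submitters' processing notes name GRCh37.p5.

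Library totals ran from 2591655 to 4706156 counts with ETBF and from 5243400 to 6522542 in controls. All 7 intestinal and epithelial marker miRNAs were detected, with a summed level of 12587 to 14077 CPM with ETBF and 15339 to 16512 CPM in controls (CPM is the count relative to the library total, scaled with TMM factors). MiR-200c-3p made up most of that sum, with a mean of 10961 CPM with ETBF and 13640 CPM in controls. Higher on average with ETBF than in controls were miR-203a (1725 and 1286 CPM) and miR-194-5p (168 and 155 CPM). Lower with ETBF were miR-375 (249 and 368 CPM), miR-192-5p (149 and 184 CPM), miR-141-3p (183 and 200 CPM) and miR-215-5p (1.84 and 2.17 CPM). The 4 blood markers summed to 66.0 to 98.8 CPM with ETBF and 52.7 to 61.9 CPM in controls, and the 3 stromal markers to 383 to 426 CPM with ETBF and 411 to 425 CPM in controls. Among the blood markers miR-451a averaged 29.4 CPM with ETBF and 7.24 CPM in controls. The others averaged, with ETBF and in controls, 12.8 and 12.5 CPM (miR-142-3p), 35.4 and 37.8 CPM (miR-486-5p), and 0.118 and 0.0497 CPM (miR-223-3p). The part of these markers in the results on the members was not tested.

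None of the 4 members with enough counts to test passed the test of a difference between ETBF and control cells. MiR-320a, miR-320b and miR-320c lay slightly lower with ETBF on average and miR-484 slightly higher, and in each case the libraries of the 2 groups overlapped. MiR-320d was at the edge of detection in both groups. Of the 4 tested members 0 passed, where 34.4% of all 480 tested miRNAs did (edgeR, adjusted p under 0.05 in either direction, 19.8% higher and 14.6% lower with ETBF). At that share a count of 0 among 4 names does not set the members apart. With DESeq2 and limma-voom 0 of the 4 passed too, and 0 had an unadjusted p under 0.05 with edgeR. The groups did not overlap for 33.8% of the 480 and for 0 of the 4. The median absolute log2 fold change was 0.09 over the 4 members and 0.29 over the 480, and the signed medians were -0.07 and 0.01. The 480 include many names of lower level than the members, and these medians were not matched by level. Over all 480, 95 were higher and 70 lower with ETBF, a split that was 71 higher and 89 lower with upper-quartile scaling.

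MiR-320a was the most abundant member. It had 1153, 1116, 1069 and 1043 CPM in ETBF replicates 1 to 4, against 1170, 1151, 1223 and 1149 CPM in control replicates 1 to 4. ETBF replicates 2, 3 and 4 lay below all controls, and ETBF replicate 1 lay within the control range. The mean level was 1095 ± 48.8 CPM in ETBF cells, against 1173 ± 34.4 CPM in control cells (SD, n = 4 each). The log2 fold change was -0.10 (SE 0.07, edgeR adjusted p = 0.272), with a 95% interval of -0.26 to 0.06. On a linear scale that interval runs from 0.836 to 1.04 times the control level. Of the 480 tested miRNAs, not matched by level, 79.2% had a larger absolute log2 fold change.

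MiR-484 was second in level. It had 391, 353, 334 and 320 CPM in ETBF replicates 1 to 4, against 304, 312, 380 and 322 CPM in control replicates 1 to 4. Control replicate 3 exceeded 3 of the 4 ETBF libraries, and the other controls lay at or near the low end of the ETBF range. The mean level was 349 ± 31.0 CPM in ETBF cells, against 329 ± 34.5 CPM in control cells (SD, n = 4 each). The log2 fold change was 0.09 (SE 0.09, edgeR adjusted p = 0.502), with a 95% interval of -0.13 to 0.31, or 0.911 to 1.24 times the control level. After removal of the trend with GC content the value was 0.20 (edgeR adjusted p = 0.0754), the largest of its 19 alternatives, which began at 0.00 with upper-quartile scaling.

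MiR-320b had 208, 208, 199 and 196 CPM in ETBF replicates 1 to 4, against 204, 200, 241 and 224 CPM in control replicates 1 to 4. The ETBF libraries were close together, and control replicates 3 and 4 lay above all of them. The mean level was 203 ± 5.89 CPM in ETBF cells, against 217 ± 18.9 CPM in control cells (SD, n = 4 each). The log2 fold change was -0.10 (SE 0.08, edgeR adjusted p = 0.389), with a 95% interval of -0.30 to 0.10, or 0.812 to 1.07 times the control level.

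MiR-320c had 50.3, 43.7, 41.1 and 25.8 CPM in ETBF replicates 1 to 4, against 50.9, 31.3, 46.8 and 40.6 CPM in control replicates 1 to 4. Both groups ranged widely, with ETBF replicate 4 the lowest library and control replicate 1 the highest. The mean level was 40.2 ± 10.4 CPM in ETBF cells, against 42.4 ± 8.50 CPM in control cells (SD, n = 4 each). The log2 fold change was -0.05 (SE 0.17, edgeR adjusted p = 0.847). Its 95% interval, -0.47 to 0.37, is the widest of the 4 and covers 0.720 to 1.30 times the control level. Without ETBF replicate 4 the value was 0.09 and without control replicate 1 it was 0.05, so its direction rests on single libraries.

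MiR-320d had 1, 0, 3 and 0 counts in ETBF replicates 1 to 4, against 1, 1, 0 and 3 counts in control replicates 1 to 4. No library exceeded 3 counts, which is as much as a count of 0 can hide and corresponds to 0.645 to 1.12 CPM in the ETBF libraries and 0.447 to 0.597 CPM in the controls. A difference in miR-320d was not detectable at this depth, and no fold is given. That limit covers counting error only, since PCR copies of a molecule cannot be told from separate molecules.

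**Figure D1:**
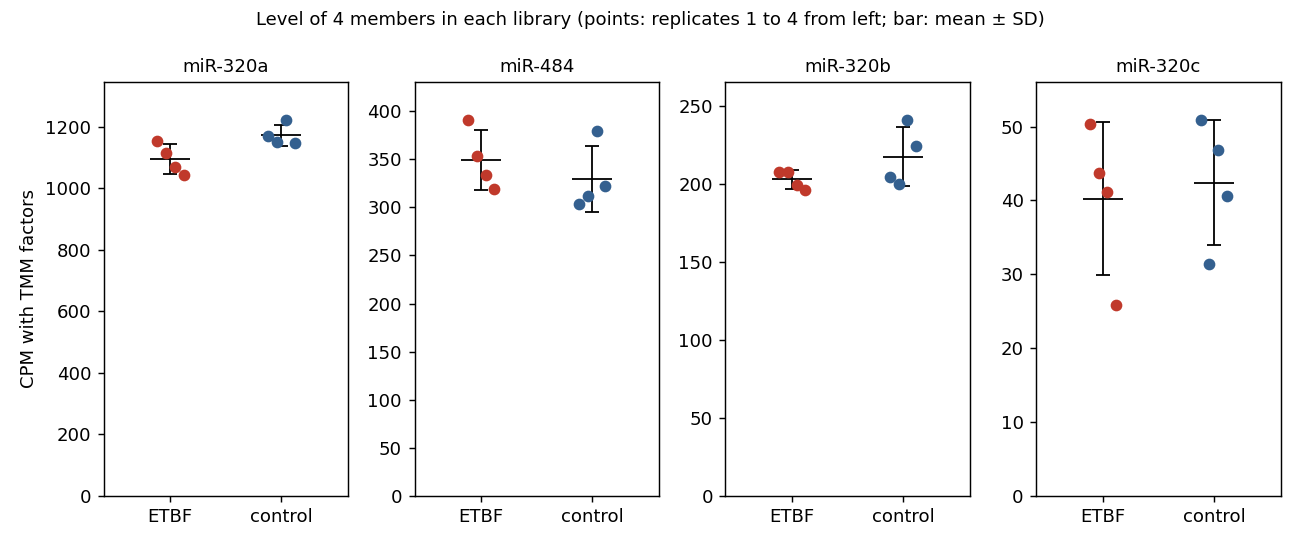
Level in CPM with TMM factors (vertical axis, from 0) of miR-320a, miR-484, miR-320b and miR-320c in each ETBF and control library. Points are replicates 1 to 4 from left to right and bars are means ± SD (n = 4 each); the ETBF and control points overlap in every panel, for example 1043 to 1153 CPM with ETBF and 1149 to 1223 CPM in controls for miR-320a.

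**Figure D2:**
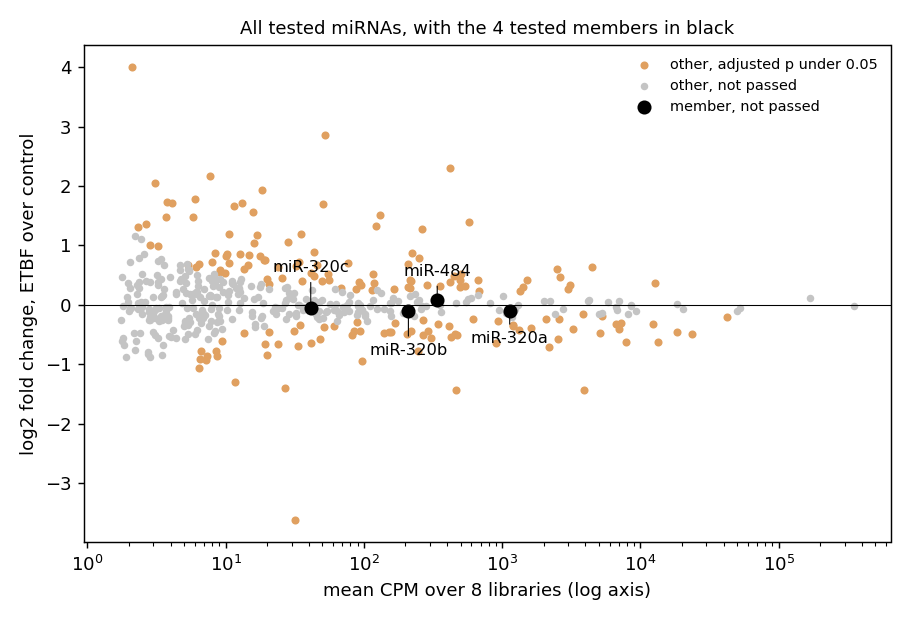
Log2 fold change of ETBF over control (vertical axis) against the mean CPM over the 8 libraries (horizontal log axis) for the 480 tested miRNAs, coloured by whether the edgeR adjusted p was under 0.05. The 4 tested members, in black, lie between -0.10 and 0.09 and did not pass, while 165 of the 480 did.

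The order of the levels was the same in every library: miR-320a, miR-484, miR-320b, miR-320c and miR-320d. No neighbours in this order overlapped over the 8 libraries. The lowest miR-320a level was 1043 CPM and the highest miR-484 level 391 CPM, the lowest miR-484 level was 304 CPM and the highest miR-320b level 241 CPM, and the lowest miR-320b level was 196 CPM and the highest miR-320c level 50.9 CPM. A read in these libraries is taken to stand for a whole mature miRNA, so the levels were not divided by length. By mean level over the 8 libraries miR-320a ranked 58 among all names, miR-484 ranked 94, miR-320b ranked 116 and miR-320c ranked 200.

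Variation between replicates differed among the 4 tested members. The coefficient of variation of miR-320a was 4.46% with ETBF and 2.93% in controls, where counting error alone gives 1.56% and 1.23%. For miR-484 it was 8.87% with ETBF and 10.5% in controls, where counting error gives 2.76% and 2.33%. For miR-320b it was 2.90% with ETBF, below the counting error of 3.64%, and 8.68% in controls, above the counting error of 2.87%. Of the 4 tested members miR-320c varied most, by 25.7% with ETBF and 20.1% in controls, against a counting error of 7.99% and 6.52%. Among the ETBF libraries the levels of miR-320a, miR-484 and miR-320c had the same order as the library totals, which were highest in replicate 1 (4706156 counts) and lowest in replicate 4 (2591655). The part of depth in these levels was not tested beyond thinning all libraries to the smallest total. With thinning the log2 fold changes were -0.08 for miR-320a, 0.09 for miR-484, -0.09 for miR-320b and -0.14 for miR-320c, and none passed (edgeR adjusted p = 0.410, 0.512, 0.516 and 0.650).

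The proportions of the members within the family differed between the groups by less than their spread between replicates. MiR-320a made up 81.8% ± 0.408 of the family's counts in ETBF cells, against 81.9% ± 1.03 in control cells (SD, n = 4 each). MiR-320b made up 15.2% ± 0.328 with ETBF and 15.1% ± 0.869 in controls, and miR-320c 2.98% ± 0.656 with ETBF and 2.95% ± 0.542 in controls. MiR-320d made up 0.0185% with ETBF and 0.0146% in controls, from 4 and 5 counts. The family as a whole took 1338 ± 64.0 CPM in ETBF cells, against 1433 ± 54.6 CPM in control cells, and since it is a sum over chosen members it was not tested.

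Ratios within a library need no scaling between libraries. For each other member the log2 ratio of its counts to those of miR-320a was compared between the groups by a two-sided exact permutation test, adjusted over 4 ratios. The count of miR-320b was 18.5% ± 0.350 of that of miR-320a in ETBF cells, against 18.5% ± 1.27 in control cells (SD, n = 4 each), a difference of 0.00 on the log2 scale (SE 0.05, exact permutation p = 1, adjusted p = 1). That of miR-320c was 3.65% ± 0.815 with ETBF and 3.61% ± 0.680 in controls, a difference of 0.01 (SE 0.23, exact permutation p = 0.914, adjusted p = 1). Both ratios differed between the groups by less than the spread between replicates.

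The ratio of miR-484 to miR-320a had the smallest p of the 4 ratios. It was 33.9%, 31.6%, 31.2% and 30.7% in ETBF replicates 1 to 4, against 26.0%, 27.1%, 31.1% and 28.1% in control replicates 1 to 4. Control replicates 1, 2 and 4 lay below all ETBF libraries, and control replicate 3 lay above ETBF replicate 4. The mean was 31.9% ± 1.44 in ETBF cells, against 28.0% ± 2.19 in control cells (SD, n = 4 each). The difference was 0.19 on the log2 scale (SE 0.06, exact permutation p = 0.0571, adjusted p = 0.229), where the smallest p this design allows is 0.0286. It did not pass, and across the alternatives it ran from 0.15 to 0.24.

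**Figure D3:**
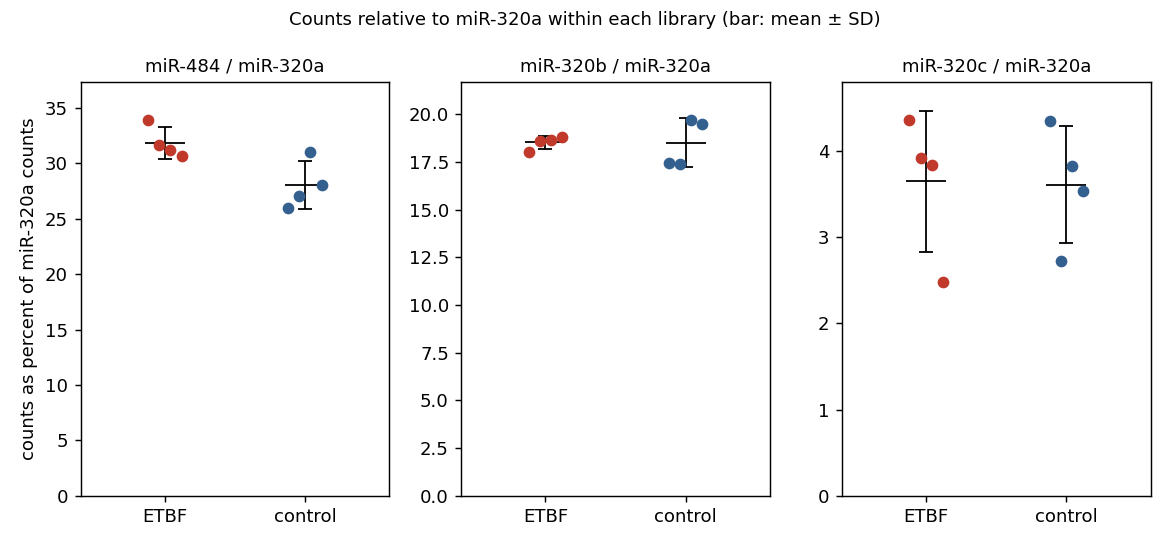
Counts of miR-484, miR-320b and miR-320c as a percentage of the miR-320a counts of the same library (vertical axis, from 0) in ETBF and control libraries. Points are replicates 1 to 4 from left to right and bars are means ± SD (n = 4 each); the miR-484 percentage was 30.7% to 33.9% with ETBF and 26.0% to 31.1% in controls, and the other ratios overlap widely.

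MiRNAs made from several hairpin genes can be counted once per copy, which can show as counts that are all multiples of the copy number. MiR-320b, miR-320c and miR-320d each have 2 hairpin genes, and none had counts that were all even. MiR-320b was even in 6 of 8 libraries and odd in 2, with 1027 and 1267 counts in control replicates 1 and 3. MiR-320c was even in 7 of 8 and odd in ETBF replicate 4, at 69 counts. All 5 counts of miR-320d above 0 were odd. The single-copy miR-320a was even in 4 of 8 libraries and miR-484 in 5 of 8. Among names with 2 hairpin genes and counts above 0 in at least 4 libraries, every count shared a factor for 23 of 56. All 23 were among the 32 names that averaged under 100 counts per library, and the figure was 0 of the 24 names at or above 100, to which miR-320b and miR-320c belong. Of the counts above 0 of those 24 names, 50.5% were even. Since no name at that level had a common factor, its lack does not show how miR-320b and miR-320c reads were counted. Among names with 1 hairpin gene it was 9 of 820. With every name's common factor removed before the fit, the log2 fold changes were -0.11 for miR-320a and miR-320b, -0.06 for miR-320c and 0.08 for miR-484.

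The sequences set a limit on these counts. From the first base of the mature RNA the 2 miR-320b hairpins are identical for 23 bases, the 2 miR-320c hairpins for 21 and the 2 miR-320d hairpins for 19. MiR-320b and miR-320c hairpins share their first 19 bases, and both share 18 with the miR-320d hairpins. A read that ends within those bases matches more than 1 of these 3 members or hairpins. The authors' setting for such reads is not given in the sources used here. MiR-365a-3p and miR-365b-3p had equal counts in each library, for example 408 in ETBF replicate 1 and 476 in control replicate 1. MiR-320d had at most 3 counts in any library. Whether reads shared by several miR-320 names were counted under each of them was not tested. The levels of miR-320b, miR-320c and miR-320d are uncertain for that reason. The reference used here held no miR-320a sequence, so the bases that miR-320a shares with these 3 members were not compared. How counts were split between miR-320a and the other members is therefore uncertain too, as are their shares and ratios to miR-320a.

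The family's miR-320e and the other names with the seeds of miR-320b or miR-484 had few or no counts. MiR-320e, whose own seed differs, had 0 counts summed over ETBF libraries and 1 summed over control libraries, and miR-4429 had 0 in both groups. MiR-3155a, with the seed of miR-484, had 18 counts in each group, and miR-3155b had 0 in both. Since the library totals differ, those counts of miR-3155a were 1.32 ± 1.00 CPM with ETBF and 0.784 ± 0.273 CPM in controls. None of these passed the expression filter.

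Of the other miRNAs known or proposed to be made outside the usual Drosha and Dicer route, miR-451a passed and none of the others tested did. Of 23 names from proposed mirtrons, hairpins cut out by splicing in place of Drosha, 3 were tested and 0 passed (edgeR; median log2 fold change 0.08, against 0.01 over all 480). With 34.4% of all 480 passing, counts of 0 among 3 or 4 names do not set these lists apart. MiR-877-5p, from an intron of ABCF1, was at 51.0 ± 12.2 CPM in ETBF cells, against 47.8 ± 6.01 CPM in control cells (log2 fold change 0.08, SE 0.15, -0.01 with upper-quartile scaling). MiR-1224-5p was at 10.3 ± 1.92 CPM in ETBF cells, against 12.1 ± 0.471 CPM in control cells (-0.23, SE 0.16). Of 8 names whose hairpins overlap snoRNAs or resemble them, 4 were tested and 0 passed (median 0.43). Without control replicate 2, miR-1248 and miR-3607-3p of this list passed as higher, at 1.16 and 1.49 (edgeR adjusted p = 0.0210 and 0.0279). Over all single left-out libraries they ran from 0.48 to 1.16 and from 0.21 to 1.49. Both levels were low: miR-1248 was at 4.48 ± 1.41 CPM in ETBF cells, against 2.69 ± 1.68 CPM in control cells (0.68, SE 0.38). MiR-3607-3p was at 6.44 ± 4.76 CPM in ETBF cells, against 4.03 ± 3.54 CPM in control cells (0.69, SE 0.52). MiR-664a-3p was at 12.3 ± 1.80 CPM in ETBF cells, against 12.9 ± 1.29 CPM in control cells (-0.09, SE 0.15), and miR-1291 at 6.60 ± 0.860 CPM in ETBF cells, against 5.78 ± 0.331 CPM in control cells (0.19, SE 0.19). MiR-451a, which skips Dicer but needs Drosha, rose to 29.4 ± 19.8 CPM with ETBF, against 7.24 ± 1.97 CPM in controls (1.94, SE 0.35, edgeR adjusted p = 0.000458). Over all single left-out libraries it ran from 1.44, without ETBF replicate 4, to 2.14. MiR-451a was the only name of its list, so 1 of 1 passed, where 34.4% of all 480 did. It is also among the blood markers summed above.

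The miRNAs whose log2 CPM followed a member most closely over the 8 libraries are given as a description, since all points share depth and scaling. For miR-320a they were miR-328-3p, miR-659-5p and miR-543, with Pearson correlations of 0.91, 0.91 and 0.89. MiR-328-3p was at 68.0 ± 11.1 CPM in ETBF cells, against 97.5 ± 5.32 CPM in control cells (log2 fold change -0.51, SE 0.11, edgeR adjusted p = 0.00163), so unlike miR-320a it passed, and the difference between them was not tested. MiR-659-5p and miR-543 averaged 2.46 and 4.39 CPM with ETBF and 3.54 and 6.28 CPM in controls, and did not pass. MiR-320b ranked 34 by likeness to miR-320a (correlation 0.74) and miR-320c ranked 69 (0.63). For miR-484 the closest were miR-146b-3p, miR-505-3p and miR-92a-3p (0.84, 0.84 and 0.80), none of which passed. MiR-92a-3p, an abundant miRNA of the miR-17-92 cluster, averaged 8579 CPM in ETBF cells, against 8599 CPM in control cells (log2 fold change -0.00, SE 0.08). The correlation between miR-484 and miR-320a was 0.32.

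**Figure D4:**
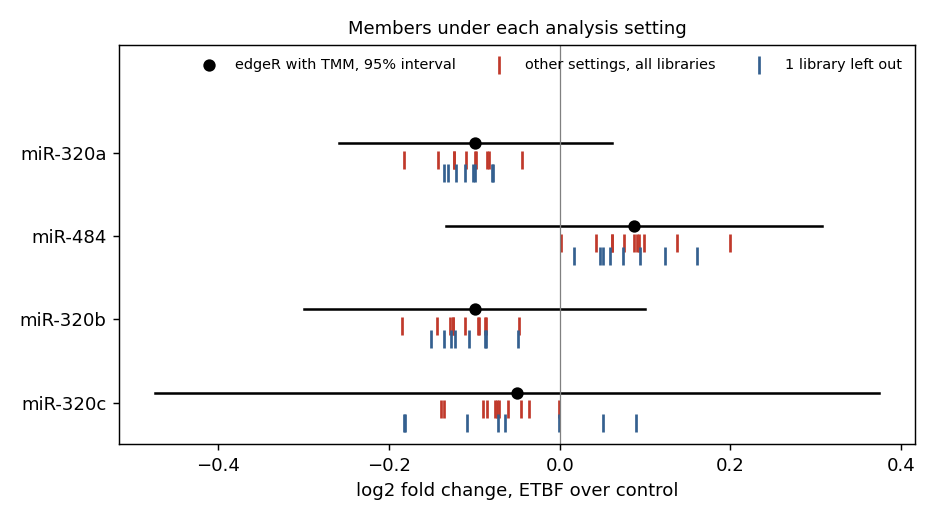
Log2 fold change of ETBF over control (horizontal axis) of miR-320a, miR-484, miR-320b and miR-320c. Black points and lines are the edgeR values with TMM scaling and 95% intervals, red marks are other settings with all libraries and blue marks leave out 1 library; each of the 4 black intervals spans 0, and the marks of miR-320c reach 0.09 on the upper side.

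In whole-cell libraries of this kind a smaller share of cells that hold an RNA and less of it per cell cannot be told apart. Relative levels do not show a change shared by all miRNAs.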

How the data were processed

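Small RNA from 8 HCT116 libraries was analysed, grouped by their titles as 4 ETBF and 4 control. Each deposited file gives the authors' raw read counts of 1 library, by miRNA name. Per the submitters' processing notes, Trimmomatic, FastQC and featureCounts were used with GRCh37.p5; no version, aligner, annotation release, strand or multi-mapping setting is stated there. The members and lists were chosen with earlier results of these data known.

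Counts were fitted with edgeR 4.0.16 (quasi-likelihood F test, R 4.3.3), TMM factors, a group term and filterByExpr (minimum count 10), which left 480 names. Two-sided p-values took Benjamini-Hochberg adjustment over the 480, with a threshold of 0.05. The SE is the size of the log2 fold change over the root of F, and the 95% interval uses 6 residual degrees of freedom, so both are approximate. Ratios took 0.5 added to each count and an exact permutation test over 70 arrangements. Likeness used log2 CPM with a prior count of 2.

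Alternatives were DESeq2 1.42.0, limma 3.58.1 (voom), 3 other scalings, no filter, a minimum count of 50, the replicate number as a block, common factors removed, thinning, a GC correction with 417 names (86.9%) that had a sequence, without miR-320a, and each library left out. The text names the 5 members, miR-320e and names with a member's seed. It also names up to 4 list members that passed by level (or the 2 of highest level), and the 3 names most like miR-320a and miR-484. MiR-1248, miR-3607-3p, miR-365a-3p, miR-365b-3p and the single intestinal, epithelial and blood markers were named after their values were seen.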

Additional observations from a re-analysis of the deposited data

Results flagged for a closer look

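In 14 groups of 4 values, the CPM of the 4 tested members and the 3 ratios to miR-320a in ETBF and in control libraries, 0 had a library far from the other 3 by Dixon's test at its 95% critical value.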

How the results depend on the processing

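No tested member passed under any alternative run. The log2 fold change ran from -0.18 to -0.04 for miR-320a over 18 alternatives, and over 19 alternatives from -0.18 to -0.05 for miR-320b, from -0.18 to 0.090 for miR-320c and from 0.00 to 0.20 for miR-484. Leaving out 1 library gave -0.14 to -0.08 for miR-320a, -0.15 to -0.05 for miR-320b, -0.18 to 0.090 for miR-320c and 0.02 to 0.16 for miR-484. The ratio to miR-320a then ran from -0.026 to 0.034 for miR-320b, from -0.12 to 0.18 for miR-320c and from 0.15 to 0.24 for miR-484, where the smallest exact p of 3 against 4 is 0.0571. After thinning the miR-320c ratio turned to -0.058. MiR-877-5p turned to -0.0071 with upper-quartile scaling and ran from -0.031 to 0.18 with 1 library left out; the cause was not tested. Calls among the snoRNA-related names ran from 0 to 2 with 1 library left out. Over all miRNAs 143 to 168 were called, against 165.

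Replicate numbers did not pair the libraries: deviations of same-numbered libraries correlated at -0.06 to 0.06, and 0 of 4 ETBF libraries matched its own number best. With the replicate block 159 were called, and the members were at -0.10, -0.10, -0.07 and 0.09 (miR-320a, miR-320b, miR-320c and miR-484), none past the threshold. Depth limits miR-320d, and spread between replicates limits miR-320c.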
